A study of Mus musculus with 28 samples.

Results

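The antioxidant enzymes described here are 10 genes whose products remove superoxide, hydrogen peroxide, lipid peroxides and free heme, or keep the enzymes that do so in working order. They were chosen by name, as Hmox1, Sod1, Sod2, Sod3, Cat, Gpx1, Gpx3, Gpx4, Srxn1 and Txnrd1, and are 10 of the 45318 genes in the deposited tables. The mice were male Hsd:ICR(CD-1) pups, an outbred stock, and carried no engineered allele. In the MI groups the left anterior descending coronary artery was ligated on postnatal day 7 or on postnatal day 1, which causes a myocardial infarction, and in the SHAM groups the pups had a sham operation on the same days. The left ventricular wall was sampled outside the infarct after a follow-up of 3 days (groups 7d-MI + 3, 7d-SHAM + 3, 1d-MI + 3 and 1d-SHAM + 3, 4 libraries each) or 21 days (7d-MI + 21, 7d-SHAM + 21, 1d-MI + 21 and 1d-SHAM + 21, 3 libraries each). At sampling the mice were 10 days old in the 7d + 3 groups and 4 days old in the 1d + 3 groups, and 28 and 22 days old in the 7d + 21 and 1d + 21 groups. Operation day and age therefore cannot be told apart in any comparison of 7d with 1d. The study set the 7-day operation against the 1-day operation because the newborn mouse heart loses much of its capacity to regenerate during the first week after birth.

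Superoxide leaks from the respiratory chain and is made by the oxidase of phagocytes. Superoxide dismutases turn it into hydrogen peroxide, which catalase, the glutathione peroxidases and the peroxiredoxins remove. The glutathione peroxidases and the peroxiredoxins, unlike catalase, do so at the expense of glutathione or thioredoxin. The transcription factor Nrf2 raises several of these genes when cells meet oxidants or heme, by binding antioxidant response elements in their promoters and enhancers. In the heart, with its dense mitochondria, the matrix enzyme Sod2 carries much of the superoxide load, whereas Hmox1 is low in resting myocardium and inducible.

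The 28 libraries were compared within each follow-up, as CPM (read counts scaled to 1000000 per library, after TMM scaling), because the 3-day and 21-day libraries were made with different kits and sequencers. Total counts lay between 33077962 and 51942648 at 3 days and between 40514177 and 168550985 at 21 days. All 10 genes passed the filter on low counts at both follow-ups, and the lowest raw count of any member in any library was 16, of Sod3 in a 1d-SHAM + 3 library. Within groups, the median correlation of a library with the others of its group lay between 0.939 and 0.978 at 3 days, and at 21 days it fell as low as 0.837, in 7d-SHAM + 21 replicate 1. Each group's animals carry name prefixes that no other group of the same follow-up has, so a prefix effect and a group effect cannot be told apart. The libraries of 7d-SHAM + 3 all share a prefix, as do those of each 21-day group, while the other 3-day groups mix prefixes. Nothing in the labels says whether the libraries of a group came from separate litters, and p-values measure the spread between these libraries. A gene is called here when its adjusted p, from the quasi-likelihood test of edgeR and adjusted by Benjamini-Hochberg over all tested genes, was under 0.05. The share of mitochondrially encoded genes in the counts moved with the groups too, at 40.3% to 43.3% in 7d-MI + 3, against 54.9% to 61.0% in 7d-SHAM + 3, and at 37.2% to 47.9% in 1d-MI + 3, against 38.7% to 59.3% in 1d-SHAM + 3, and it spanned 8.24% to 56.1% at 21 days. Its part in the results was not tested.

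Per kilobase of gene length, Sod1 stood highest of the 10 in every 3-day group, at 139 CPM per kilobase in 7d-MI + 3 and 212 in 7d-SHAM + 3. Sod3 stood lowest, at 2.27 CPM per kilobase in 7d-MI + 3 and 0.727 in 7d-SHAM + 3. The order between these ends differed between the infarcted and sham groups. In 7d-MI + 3, Gpx3 (55.5), Sod2 (40.7), Gpx1 (36.5), Cat (28.2), Hmox1 (21.4), Gpx4 (20.5) and Txnrd1 (15.1 CPM per kilobase) followed Sod1. In 7d-SHAM + 3 the order was Sod2 (82.9), Cat (52.9), Gpx4 (26.8), Gpx1 (25.9), Gpx3 (23.9) and Txnrd1 (10.7 CPM per kilobase), with Hmox1 at 1.38 and Srxn1 at 1.41. Neighbours in this order, such as Gpx4, Gpx1 and Gpx3 in 7d-SHAM + 3, were not tested against each other.

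At 3 days after the 7-day operation, 8 of the 10 genes differed between the infarcted and sham hearts. Hmox1, Sod3, Gpx3, Srxn1 and Txnrd1 rose, 5 of 10 against 19.8% of all 20345 tested genes. Sod2, Cat and Sod1 fell, 3 of 10 against 14.2% of all tested genes. In each of these 8 the 4 libraries of 7d-MI + 3 all lay on one side of the 4 libraries of 7d-SHAM + 3. The other two genes, Gpx1 and Gpx4, had overlapping libraries and were not called, although Gpx4 passed in 5 of 25 alternatives and Gpx1 in 3, and both did when the 2 groups were fitted alone. The median log2 fold change of the 10 genes was 0.49, beside 0.08 over all tested genes. Txnrd1 lost its call in 5 of 25 alternatives, and the other 7 called genes held theirs in all 25.

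**Figure D1:**
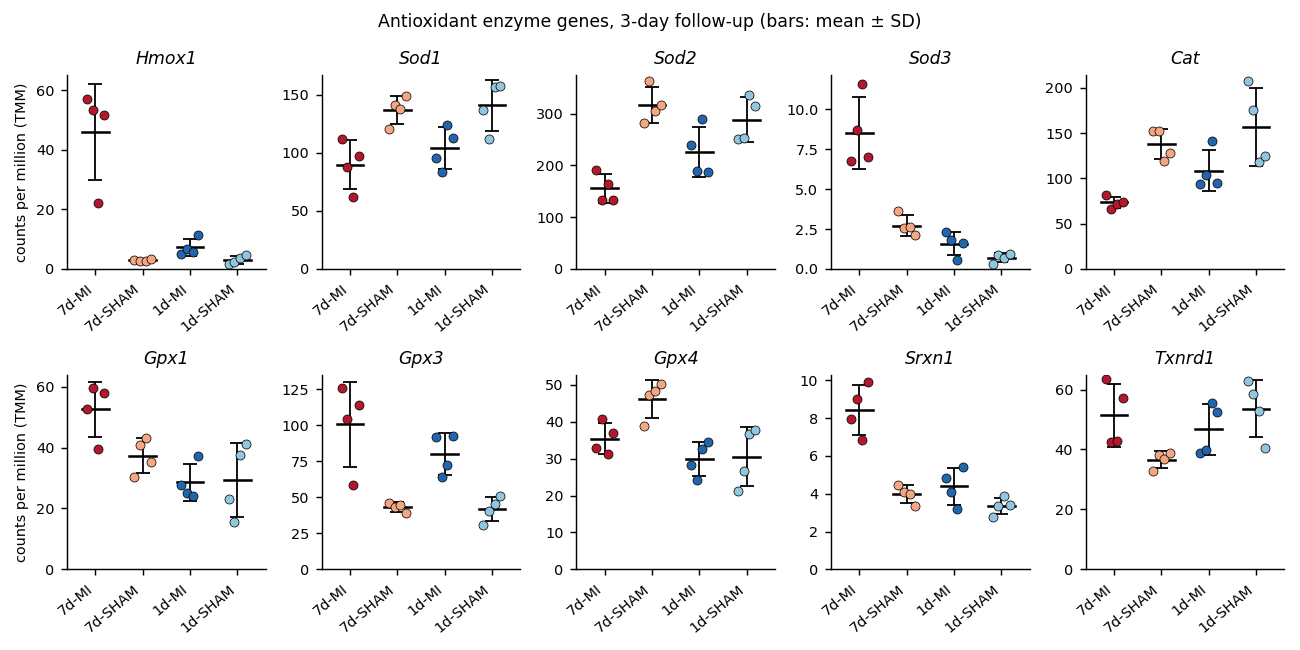
Level of each antioxidant enzyme gene in the 16 libraries of the 3-day follow-up, in CPM after TMM scaling on a linear axis from 0. Points are libraries, and bars give the mean and SD of the 4 libraries of a group. In 7d-MI + 3, Hmox1 stands at 22.3 to 57.2 CPM, above every other library, whereas Sod2, Cat and Sod1 lie below every 7d-SHAM + 3 library.

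Hmox1 (ENSMUSG00000005413, chr8:75093621-75100589, plus strand, GRCm38) encodes heme oxygenase 1, the inducible enzyme that opens the heme ring to biliverdin, carbon monoxide and iron. It had 57.2, 53.5, 22.3 and 51.8 CPM in the 4 libraries of 7d-MI + 3, against 3.06, 2.79, 2.66 and 3.42 CPM in those of 7d-SHAM + 3. The groups did not overlap, and replicate 3 of 7d-MI + 3 lay well under the others of its group. The log2 fold change was 3.95 ± 0.36 (standard error), a 15.5-fold higher level (adjusted p = 6.22e-07), and 4.19 without that library (adjusted p = 9.95e-08).

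After the 1-day operation Hmox1 had 5.11, 6.61, 5.82 and 11.6 CPM in 1d-MI + 3, against 1.59, 2.49, 3.63 and 4.79 CPM in 1d-SHAM + 3. Every infarcted library was above every sham library, and replicate 4 of 1d-MI + 3 was the highest. The log2 fold change was 1.24 ± 0.34 (adjusted p = 0.0349). Without replicate 4 of 1d-MI + 3 it was 0.92 and no longer passed (adjusted p = 0.104), and Hmox1 lost this call in 8 of 25 alternatives. Between the infarcted groups, Hmox1 was 6.33-fold higher in 7d-MI + 3 than in 1d-MI + 3 (log2 fold change 2.66 ± 0.34, adjusted p = 1.82e-05), whereas the sham groups overlapped (log2 fold change -0.05 ± 0.35, adjusted p = 0.932). The infarct effect on Hmox1 was thus larger after the 7-day operation, by 2.71 ± 0.48 on the log2 scale (adjusted p = 0.00181 for the difference of effects), and this difference passed in all 24 alternatives.

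Srxn1 (ENSMUSG00000032802, chr2:152105516-152111376, plus strand) encodes sulfiredoxin, which reactivates peroxiredoxins after overoxidation of their active-site cysteine, and Txnrd1 (ENSMUSG00000020250, chr10:82833951-82897712, plus strand) encodes the cytosolic thioredoxin reductase, a selenoprotein that reduces thioredoxin with NADPH. Both are classical Nrf2 targets. The upstream sequence of Srxn1 is shown because its promoter window (250 bases before and 50 after the RefSeq start, GRCm38.p6) holds the letters TGAGTCA in 2 places, and in one of them GC follows. TGAGTCA is the letter form of an AP-1 site. Capitals mark these matches, and the stretch runs from position -115 to -19 relative to the start, chr2:152105409-152105505, plus strand:
Srxn1 upstream: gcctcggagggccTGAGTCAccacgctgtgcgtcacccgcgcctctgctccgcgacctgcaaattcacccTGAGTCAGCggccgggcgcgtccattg
TGAGTCA or its complement TGACTCA occurred in 5.20% of all 32851 promoter windows of the table, and with GC after either spelling (TGAGTCAGC or TGACTCAGC, both strands searched) in 0.822%. Of the 8 members that matched a window, Srxn1 had the only match to either. Among the regulators and classical targets of Nrf2 listed beside the members, Prdx1, Osgin1 and Me1 also held the longer form.
The core of the antioxidant response element, searched as TGACNNNGC on either strand, was found in 12.4% of all windows, and in those of Srxn1, Txnrd1 and Sod1 among the members. A spelling with TGAG in place of TGAC, which the TGAGTCAGC of the Srxn1 stretch would match, was not searched. In Srxn1 the TGACNNNGC match lies at +29, outside the stretch shown. In Sod1 it lies before the start, and in Txnrd1 before an alternative RefSeq start that is inside the gene as placed above, in both on the opposite strand, and capitals mark its complement on the strand shown:
Txnrd1 upstream, chr10:82859104-82859132: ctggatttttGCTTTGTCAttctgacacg
Sod1 upstream, chr16:90220696-90220724: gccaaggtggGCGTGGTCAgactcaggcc
In the direction of change the 3 genes differed, as Srxn1 and Txnrd1 rose and Sod1 fell. A match of letters describes the window and is not evidence of binding.

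Srxn1 had 7.95, 8.99, 6.84 and 9.94 CPM in 7d-MI + 3, against 4.49, 4.09, 3.995 and 3.37 CPM in 7d-SHAM + 3. The groups were apart, and no library stood alone. The log2 fold change was 1.08 ± 0.19 (adjusted p = 0.000158). In 1d-MI + 3 its level was 4.84, 4.09, 3.20 and 5.41 CPM, against 2.79, 3.34, 3.85 and 3.40 CPM in 1d-SHAM + 3, with overlap and a log2 fold change of 0.39 ± 0.19 (adjusted p = 0.184). Srxn1 was higher in 7d-MI + 3 than in 1d-MI + 3 in all 4 libraries (log2 fold change 0.94 ± 0.19, adjusted p = 0.000621). The difference of the infarct effects, 0.69 ± 0.27, did not pass (adjusted p = 0.0913).

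Txnrd1 had 63.4, 42.6, 42.7 and 57.2 CPM in 7d-MI + 3, against 32.7, 38.1, 37.0 and 38.9 CPM in 7d-SHAM + 3. The lowest infarcted library lay just above the highest sham library, and the log2 fold change was 0.49 ± 0.16 (adjusted p = 0.0245). In limma-voom with a random block for the name prefix, the adjusted p was 0.103, and the call was also lost without replicate 1 or 4 of 7d-MI + 3 or replicate 1 or 3 of 7d-SHAM + 3. In 1d-MI + 3 Txnrd1 had 38.9, 39.7, 55.5 and 52.6 CPM, against 62.8, 58.4, 52.7 and 40.6 CPM in 1d-SHAM + 3. These groups overlapped and the fold change pointed downward (log2 fold change -0.20 ± 0.16, adjusted p = 0.421). The sham groups themselves differed, Txnrd1 being lower in 7d-SHAM + 3 than in 1d-SHAM + 3 in every library (log2 fold change -0.55 ± 0.16, adjusted p = 0.0236), a call lost in 6 of 25 alternatives. The difference of the infarct effects was 0.69 ± 0.23 (adjusted p = 0.0523) and passed in 7 of 24 alternatives. Txnrd1 shares its locus with Eid3, on the same strand, and with Gm38560 and Gm47073 on the other, and the strand setting used for counting is not given in the sources used here, so reads of these genes may enter its count.

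Sod3 and Gpx3 encode secreted enzymes. Sod3 (ENSMUSG00000072941, chr5:52363791-52371418, plus strand) is the copper and zinc superoxide dismutase of the extracellular matrix. It had 6.76, 8.66, 11.6 and 6.98 CPM in 7d-MI + 3, against 3.603, 2.54, 2.61 and 2.12 CPM in 7d-SHAM + 3. All infarcted libraries were higher, replicate 3 the most (log2 fold change 1.65 ± 0.34, adjusted p = 0.000702). Sod3 had 2.28, 1.83, 0.576 and 1.64 CPM in 1d-MI + 3, against 0.318, 0.888, 0.664 and 0.932 CPM in 1d-SHAM + 3. Here replicate 3 of 1d-MI + 3 fell among the sham libraries, and the call (log2 fold change 1.19 ± 0.36, adjusted p = 0.0465) was lost in 16 of 25 alternatives. Sod3 also had the largest difference among the 10 genes between the sham groups, 3.91-fold higher in 7d-SHAM + 3 than in 1d-SHAM + 3 (log2 fold change 1.97 ± 0.36, adjusted p = 0.000892). That call was lost with the prefix block in limma-voom (adjusted p = 0.0504). Sod3 was 5.37-fold higher in 7d-MI + 3 than in 1d-MI + 3 (adjusted p = 2.55e-05). Its infarct effects after the 7-day and 1-day operations differed by 0.46 ± 0.49 (adjusted p = 0.605).

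Gpx3 (ENSMUSG00000018339, chr11:54902453-54910377, plus strand) encodes the glutathione peroxidase of plasma, a selenoprotein. It had 126, 104, 58.3 and 114 CPM in 7d-MI + 3, against 46.2, 43.3, 44.6 and 38.8 CPM in 7d-SHAM + 3. Replicate 3 of 7d-MI + 3 was again the lowest of its group but stayed above all sham libraries (log2 fold change 1.22 ± 0.20, adjusted p = 7.39e-05). In 1d-MI + 3 Gpx3 had 91.9, 64.0, 72.2 and 92.5 CPM, against 30.7, 40.8, 45.6 and 50.6 CPM in 1d-SHAM + 3. The groups were apart here too, with a log2 fold change of 0.93 ± 0.20 (adjusted p = 0.0085) that passed in all 25 alternatives. The infarct effects differed by 0.28 ± 0.28 (adjusted p = 0.558), and 7d-MI + 3 and 1d-MI + 3 overlapped.

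The 3 genes that fell encode enzymes inside the cell, as do Hmox1, Srxn1 and Txnrd1, which rose. Sod2 (ENSMUSG00000006818, chr17:13006846-13040063, plus strand), the manganese superoxide dismutase of the mitochondrial matrix, had 192, 133, 164 and 134 CPM in 7d-MI + 3, against 283, 364, 305 and 317 CPM in 7d-SHAM + 3. Every infarcted library was lower than every sham library, and the level fell by 1.03 ± 0.16 on the log2 scale (adjusted p = 6.64e-05). In 1d-MI + 3 Sod2 had 239, 188, 290 and 188 CPM, against 250.7, 252, 336 and 315 CPM in 1d-SHAM + 3. These groups overlapped and the log2 fold change was -0.35 ± 0.16 (adjusted p = 0.171). The difference of the infarct effects, -0.68 ± 0.23, did not pass (adjusted p = 0.0573), although it did in 7 of 24 alternatives.

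Cat (ENSMUSG00000027187, chr2:103453849-103485160, minus strand), the catalase of peroxisomes, had 81.8, 66.4, 71.8 and 74.5 CPM in 7d-MI + 3, against 152, 153, 120 and 129 CPM in 7d-SHAM + 3. The infarcted libraries lay close together and below the sham libraries (log2 fold change -0.91 ± 0.17, adjusted p = 0.000391). In 1d-MI + 3 the level was 94.0, 104, 142 and 94.5 CPM, against 208, 176, 118 and 125 CPM in 1d-SHAM + 3. These overlapped, with a log2 fold change of -0.53 ± 0.17 that just missed the threshold (adjusted p = 0.0596). Against 1d-MI + 3, Cat and Sod2 were lower in 7d-MI + 3 hearts as well, with log2 fold changes of -0.56 ± 0.17 (adjusted p = 0.0136) and -0.54 ± 0.16 (adjusted p = 0.0122). Both calls were lost without replicate 3 of 1d-MI + 3, the library with the highest Cat and Sod2 level of its group, with adjusted p-values of 0.0713 for Cat and 0.0583 for Sod2.

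Sod1 (ENSMUSG00000022982, chr16:90220754-90226329, plus strand), the copper and zinc superoxide dismutase of the cytosol, had 112, 87.6, 61.6 and 97.6 CPM in 7d-MI + 3, against 120, 141, 138 and 149 CPM in 7d-SHAM + 3. The groups were narrowly apart, with replicate 3 of 7d-MI + 3 the lowest (log2 fold change -0.61 ± 0.17, adjusted p = 0.00785). In 1d-MI + 3 Sod1 had 95.6, 83.8, 124 and 113 CPM, against 137, 112, 157 and 158 CPM in 1d-SHAM + 3, a log2 fold change of -0.43 ± 0.17 that did not pass (adjusted p = 0.107). Sod1 overlaps Scaf4 on the opposite strand, which limits how its count can be read in the same way as that of Txnrd1.

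Gpx1 (ENSMUSG00000063856, chr9:108338903-108340343, plus strand), the main glutathione peroxidase of the cytosol, had 52.7, 59.8, 39.7 and 58.0 CPM in 7d-MI + 3, against 30.4, 41.0, 43.1 and 35.2 CPM in 7d-SHAM + 3. Only replicate 3 of 7d-MI + 3 fell within the sham range (log2 fold change 0.49 ± 0.24, adjusted p = 0.126). In 1d-MI + 3 it had 27.8, 24.9, 24.2 and 37.1 CPM, and 1d-SHAM + 3 spanned 15.4 to 41.3 CPM. Gpx1 was higher in 7d-MI + 3 than in 1d-MI + 3 in every library (log2 fold change 0.88 ± 0.24, adjusted p = 0.00697). Gpx4 (ENSMUSG00000075706, chr10:80047166-80056439, plus strand), which reduces lipid peroxides within membranes and thereby guards against ferroptosis, had 32.8, 40.6, 31.3 and 37.1 CPM in 7d-MI + 3, against 38.8, 47.2, 48.4 and 50.2 CPM in 7d-SHAM + 3. The log2 fold change, -0.38 ± 0.17, did not pass (adjusted p = 0.0841). Between the sham groups, Gpx4 was higher in all libraries of 7d-SHAM + 3 than in 1d-SHAM + 3 (log2 fold change 0.60 ± 0.17, adjusted p = 0.0173), a call lost in 5 of 25 alternatives. In 1d-MI + 3 Gpx4 had 24.2 to 34.5 CPM, and 1d-SHAM + 3 had 21.2 to 37.7 CPM.

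Counted by comparison, the infarct after the 1-day operation called 3 of the 10 genes higher, Hmox1, Sod3 and Gpx3, against 4.10% of all tested genes, and 0 lower, against 4.36% of all tested genes. At an unadjusted p under 0.05 edgeR had 6 of the 10 in either direction, beside 27.4% of all tested genes, and DESeq2 also called 0 lower. This count depended on single libraries: 1 gene passed without replicate 1, 2 or 4 of 1d-MI + 3 or replicate 1 of 1d-SHAM + 3, and 6 passed without replicate 3 of 1d-MI + 3. Between the infarcted groups, 4 genes were higher in 7d-MI + 3 than in 1d-MI + 3 (Hmox1, Sod3, Srxn1 and Gpx1, against 19.4% of all tested genes) and 2 were lower (Sod2 and Cat, against 23.5%, a share close to that of all genes). Between the sham groups 2 genes were higher in 7d-SHAM + 3 (Sod3 and Gpx4, against 8.12%) and 1 was lower (Txnrd1, against 12.2%), and 1 gene passed when replicate 1 or 2 of 1d-SHAM + 3 or replicate 3 of 7d-SHAM + 3 was left out. The infarct effects differed between the operation days for 1 of the 10 genes, Hmox1, against 13.1% of all tested genes. DESeq2 called 3 in that comparison, adding Sod2 (adjusted p = 0.00923) and Txnrd1 (adjusted p = 0.0494), and without replicate 4 of 1d-MI + 3 the same 3 genes passed in edgeR. A second gene, Sod2 or Txnrd1, passed without replicate 2 or 3 of 1d-MI + 3, replicate 4 of 1d-SHAM + 3, or replicate 1, 2 or 3 of 7d-MI + 3. Upper-quartile scaling moved the median of all genes by -0.24 in 7d-MI + 3 against 1d-MI + 3 and by 0.15 in 1d-MI + 3 against 1d-SHAM + 3, and the genes called higher made up 27.3% of all calls in the first, beside 45.2% with TMM scaling, and 78.5% in the second, beside 48.4%. For the difference of the infarct effects that share was 36.8%, beside 68.9%. No called fold change of a member changed its sign under any scaling.

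**Figure D2:**
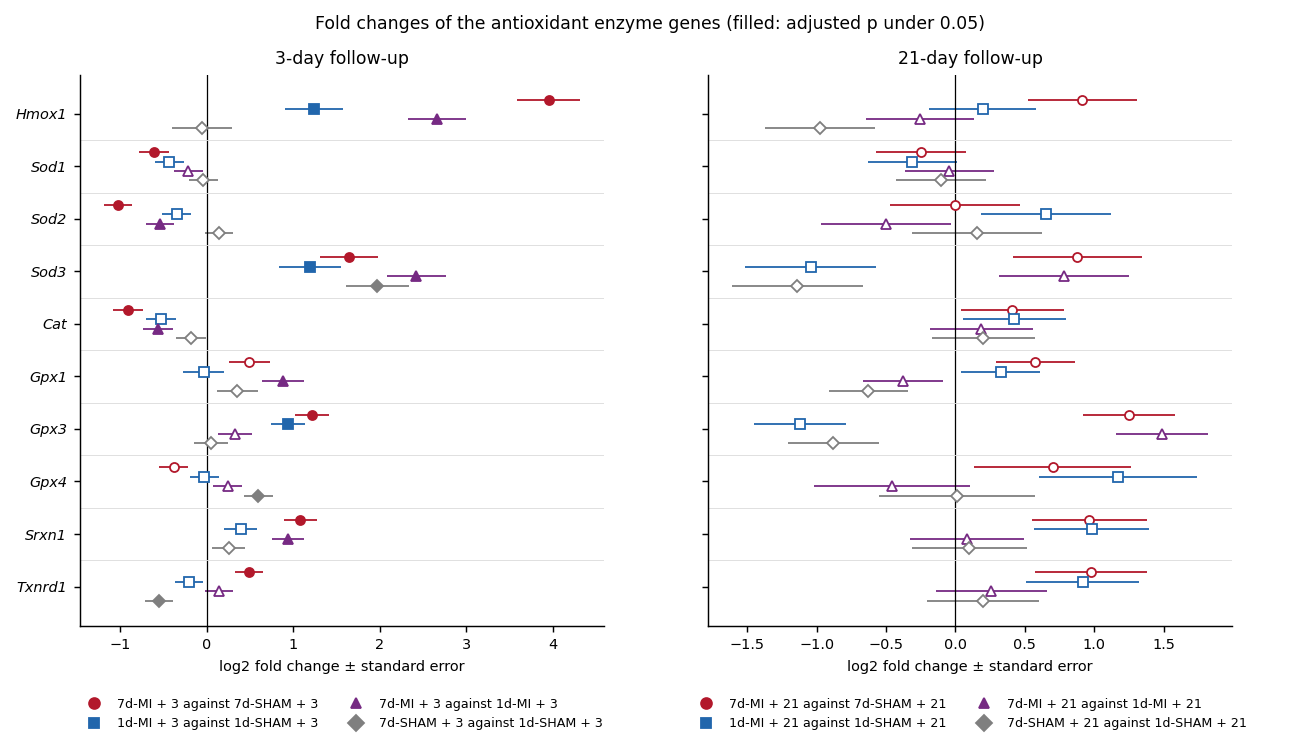
Log2 fold change of each antioxidant enzyme gene, with its standard error, in the 4 comparisons of each follow-up. Filled symbols passed an adjusted p under 0.05 in edgeR. At 3 days Hmox1 reached 3.95 in 7d-MI + 3 against 7d-SHAM + 3 and 1.24 in 1d-MI + 3 against 1d-SHAM + 3, and at 21 days no symbol is filled.

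A further 7 lists of genes around the 10 enzymes were counted the same way, none of which includes a member. The shares of all tested genes to read them against are 19.8% higher and 14.2% lower in 7d-MI + 3 against 7d-SHAM + 3 (median log2 fold change 0.08), 4.10% and 4.36% in 1d-MI + 3 against 1d-SHAM + 3, 19.4% and 23.5% in 7d-MI + 3 against 1d-MI + 3, and 13.1% in either direction for the difference of the infarct effects. Between the sham groups, 7d-SHAM + 3 against 1d-SHAM + 3, they are 8.12% higher and 12.2% lower. Of 32 tested regulators and classical targets of Nrf2, 15 rose (46.9%) and 3 fell (9.38%) in 7d-MI + 3 against 7d-SHAM + 3, with a median log2 fold change of 0.42. The pentose phosphate enzymes G6pdx, with 12.3, 13.8, 9.72 and 10.4 CPM against 2.45, 4.40, 4.81 and 5.05 CPM, and Tkt, with 33.7, 31.8, 23.6 and 32.6 CPM against 13.7, 14.8, 16.7 and 17.99 CPM, rose together with Gclm, a subunit of the enzyme that starts glutathione synthesis. Nqo1, a quinone reductase often used as an Nrf2 readout, belongs to the same list and fell by 0.53 ± 0.20 on the log2 scale (adjusted p = 0.0493). So did the glutathione transferase Gsta4 (-1.53 ± 0.16) and the small Maf protein gene Mafk (-0.62 ± 0.16). The libraries of the groups overlapped for Nqo1 and Mafk but not for Gsta4. In 1d-MI + 3 against 1d-SHAM + 3, 0 of the 32 rose and 1 fell (3.12%). The difference of the infarct effects was called for 4 of the 32, 3 higher and 1 lower, or 12.5%, close to the share of all genes. Between the sham groups, 7 of the 32 were higher in 7d-SHAM + 3 than in 1d-SHAM + 3 (21.9%) and 0 lower. In 7d-MI + 3 against 1d-MI + 3, 16 rose and 1 fell. Those that rose include Abcc1, an exporter of glutathione conjugates (log2 fold change 1.5 ± 0.15), Pgd (1.29 ± 0.15) and Fth1, the ferritin heavy chain (1.15 ± 0.18).

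The heme and iron list, to which heme oxygenase feeds its products, had 7 of 25 tested genes higher (28%) and 3 lower (12%) in 7d-MI + 3 against 7d-SHAM + 3. These shares and the median log2 fold change of 0.09 were near those of all genes. Lrp1, the receptor that takes up heme bound to hemopexin, had 259, 324, 302 and 305 CPM in 7d-MI + 3, against 55.7, 51.0, 58.2 and 55.1 CPM in 7d-SHAM + 3. Slc11a1, a metal transporter of phagosomes, had 14.98, 9.998, 4.70 and 5.34 CPM, against 1.495, 1.67, 1.02 and 0.896 CPM. Haptoglobin (Hp) was near 0 in 7d-SHAM + 3 and had 1.34 to 3.66 CPM in 7d-MI + 3. Alas1, the entry enzyme of heme synthesis (log2 fold change -0.78 ± 0.20), the heme transporter gene Flvcr2 (-1.01 ± 0.33) and Fech, which inserts the iron (-0.36 ± 0.12), fell. In 7d-MI + 3 against 1d-MI + 3 the same list had 13 genes higher (52%) and 1 lower, with Steap3, an iron reductase, at 1.67 ± 0.24, and in 1d-MI + 3 against 1d-SHAM + 3 it had 3 higher and 0 lower. Between the sham groups, 8 of its genes were higher in 7d-SHAM + 3 than in 1d-SHAM + 3 (32%) and 0 lower. The difference of the infarct effects was called higher for 2 of its genes and lower for 1, or 12%, near the 13.1% of all genes.

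Of 21 tested peroxiredoxins, thioredoxins and methionine sulfoxide reductases, 1 rose (4.76%) and 10 fell (47.6%) in 7d-MI + 3 against 7d-SHAM + 3, with a median log2 fold change of -0.50. The mitochondrial peroxiredoxin Prdx3 had 31.7, 35.3, 43.8 and 33.7 CPM in 7d-MI + 3, against 64.1, 69.6, 58.9 and 70.6 CPM in 7d-SHAM + 3. Txnrd3, a relative of Txnrd1, fell by 1.03 ± 0.12 on the log2 scale and the mitochondrial methionine sulfoxide reductase Msrb2 by 1.56 ± 0.27, while nucleoredoxin (Nxn) rose (0.99 ± 0.24). Of 33 tested genes of glutathione synthesis and use, 6 rose (18.2%, close to all genes) and 11 fell (33.3%). Slc7a11, the cystine importer, had 7.44, 5.43, 1.51 and 2.86 CPM, against 0.816, 1.18, 0.461 and 1.19 CPM, and glutathione reductase (Gsr) rose by 0.47 ± 0.12. Nnt, which makes mitochondrial NADPH, had 113, 118, 200 and 115 CPM in 7d-MI + 3, against 391, 387, 350 and 371 CPM in 7d-SHAM + 3, and Mgst3 fell by 1.57 ± 0.18. In 1d-MI + 3 against 1d-SHAM + 3 the peroxiredoxin list had 0 higher and 4 lower and the glutathione list 1 higher and 6 lower. In 7d-MI + 3 against 1d-MI + 3 the counts were 4 higher and 2 lower, and 7 higher and 3 lower. Between the sham groups, 7 and 6 genes were higher in 7d-SHAM + 3 than in 1d-SHAM + 3 (33.3% and 18.2%), and 0 were lower in both lists. The difference of the infarct effects was called lower for 4 and 5 genes and higher for 0 in both, or 19.05% and 15.2%. Over all 20345 tested genes, 829 were called lower and 1833 higher for that difference.

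Of 34 tested peroxisome genes, the organelle of catalase, 1 rose (2.94%) and 17 fell (50%) in 7d-MI + 3 against 7d-SHAM + 3, with a median log2 fold change of -0.50. Pex11a, a factor of peroxisome division, fell by 1.61 ± 0.23 and had 1.86, 1.43, 2.39 and 2.21 CPM, against 5.03, 6.81, 7.71 and 4.45 CPM. Scp2 fell by 0.82 ± 0.12 and Pex19 by 0.76 ± 0.12, and Agps, an enzyme of ether lipid synthesis, rose by 0.41 ± 0.11. In 1d-MI + 3 against 1d-SHAM + 3 the list had 0 higher and 1 lower (2.94%), and in 7d-SHAM + 3 against 1d-SHAM + 3 it had 9 higher (26.5%) and 0 lower. In 7d-MI + 3 against 1d-MI + 3 it had 5 higher and 8 lower (14.7% and 23.5%). Of 21 selenoproteins and factors of their synthesis 6 rose (28.6%) and 2 fell (9.52%), with Dio2 (1.91 ± 0.25), Selenon (1.03 ± 0.19) and Lrp8, a receptor of selenoprotein P (3.22 ± 0.70), rising and Pstk (-0.90 ± 0.13) and Selenop, the selenium carrier of plasma (-0.63 ± 0.19), falling. Of 11 genes that supply copper 2 rose, the copper pump Atp7a (1.14 ± 0.12) and the metallothionein Mt2 (2.16 ± 0.41), and 2 fell, Cox17 (-0.76 ± 0.16) and Sco1 (-0.43 ± 0.15), 18.2% each way. The shares of both lists were near those of all genes. After the 1-day operation the selenoprotein list had 1 higher and 0 lower, and the copper list the same.

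**Figure D3:**
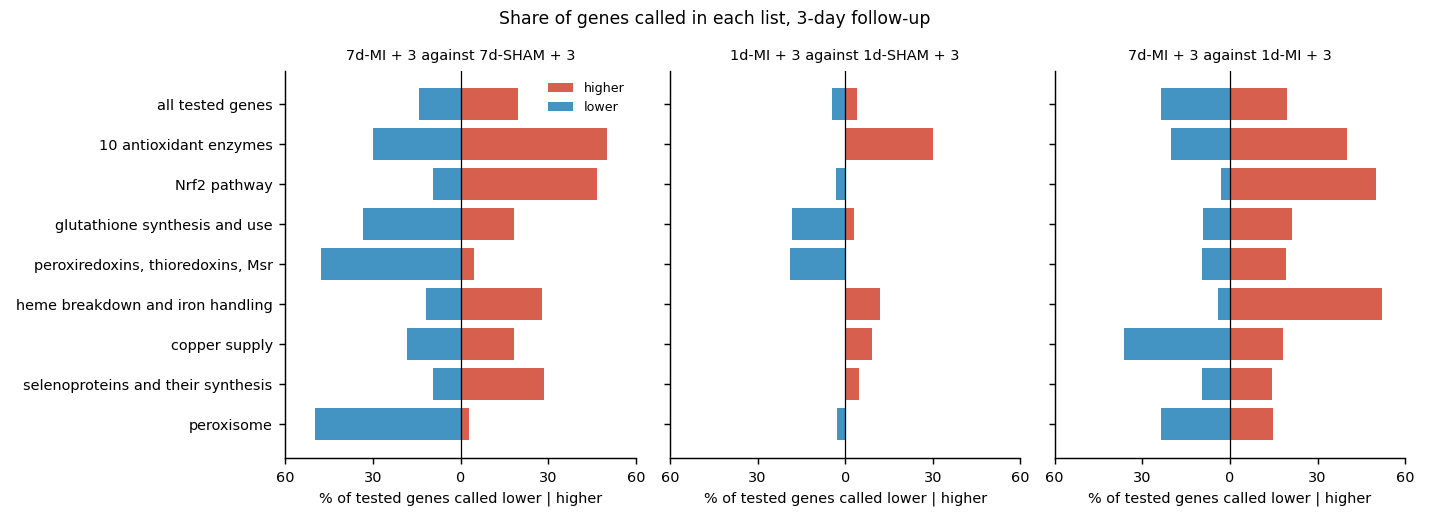
Percent of the tested genes of each list called higher (to the right of 0) or lower (to the left) in 3 comparisons of the 3-day follow-up, beside all 20345 tested genes. In 7d-MI + 3 against 7d-SHAM + 3, 15 of 32 Nrf2 genes were higher and 17 of 34 peroxisome genes were lower.

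Over the 16 libraries at 3 days, the genes whose log2 CPM followed the called members most closely were found by Pearson's r, which here describes libraries that share groups and depth. Hmox1 was nearest to Lipa, the lysosomal acid lipase (r = 0.979), and Tmem45a (r = 0.977). Sod2 was nearest to Afap1l1 (r = 0.972) and Ndufv2, a subunit of respiratory complex I (r = 0.957). Sod1 was nearest to Uqcc2, an assembly factor of complex III (r = 0.955), and Commd1 (r = 0.950). Cat was nearest to Synj2bp (r = 0.975) and Zfand5 (r = 0.965). Srxn1 was nearest to Apol7d (r = 0.969) and Sirpa, a receptor of myeloid cells (r = 0.963). Sod3 was nearest to Lrrc32 (r = 0.958) and Irak3 (r = 0.957), Gpx3 to 2200002D01Rik (r = 0.921) and Naip6 (r = 0.915), and Txnrd1 to Rrp9 (r = 0.923) and Rbbp8 (r = 0.916).

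Markers of cell types moved with the same groups. In bulk tissue, fewer cells of a type and less RNA per cell cannot be told apart. The sum of 16 macrophage and monocyte markers was 763, 673, 410 and 512 CPM in 7d-MI + 3, against 171, 120, 147 and 128 CPM in 7d-SHAM + 3, and 125, 133, 105 and 278 CPM in 1d-MI + 3, against 60.1, 60.1, 61.1 and 81.3 CPM in 1d-SHAM + 3. The library lowest in this sum within 7d-MI + 3 (replicate 3) and the highest within 1d-MI + 3 (replicate 4) were the lowest and the highest for Hmox1 as well. In 7d-MI + 3 against 7d-SHAM + 3, 14 of 16 of these markers rose and 0 fell. None was at 0 in a group. Of 11 tested neutrophil markers 10 rose, and their sum was 39.8 to 83.4 CPM, against 2.79 to 5.10 CPM. Replicate 3 of 7d-MI + 3 had the highest neutrophil sum of its group. The 7d-SHAM + 3 libraries had more macrophage marker RNA than those of 1d-SHAM + 3 in every case, while Hmox1 overlapped between them. The part of these cells in the rise of Hmox1 was not tested.

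Of 12 ventricular cardiomyocyte markers, none of them at 0, 9 fell and 0 rose in 7d-MI + 3 against 7d-SHAM + 3, which are the groups in which Sod2, Cat and Sod1 fell. Their sum was 34730 to 71102 CPM in 7d-MI + 3, against 64286 to 68364 CPM in 7d-SHAM + 3. The highest of the infarcted libraries, replicate 3, owed much of its sum to Ttn. Without Ttn its sum was 29048 CPM, the highest of its group (17907 to 29048 CPM) and below all of 7d-SHAM + 3 (36928 to 39757 CPM). In this library Sod2 had 164, Cat 71.8 and Sod1 61.6 CPM, all below every 7d-SHAM + 3 library. Without it the log2 fold changes were -1.04 for Sod2, -0.89 for Cat and -0.46 for Sod1, and all 3 passed. Fibroblast markers rose in 8 of 12 and fell in 3 (sum 6312 to 7218 CPM, against 3725 to 4182 CPM), and endothelial markers rose in 3 and fell in 5 of 12 (425 to 626 CPM, against 507 to 573 CPM). Smooth muscle and pericyte markers rose in 9 of 12 and fell in 3, but their sum overlapped (1938 to 2396 CPM, against 2178 to 2264 CPM). Markers of the mesothelium and epicardium rose in 3 of 9. Atrial markers rose in 3 of 9 tested (sum 761 to 2255 CPM, against 113 to 171 CPM, with Nppa the highest, a gene ventricles also induce), erythroid markers rose in 4 and fell in 1 of 13 (686 to 1153 CPM, against 1040 to 1252 CPM), and white adipocyte markers rose in 0 and fell in 2 of 9 tested, with Adipoq, Cfd, Cidec and Lep at 0 in every 7d-MI + 3 library. Between the sham groups, 7 of the 12 cardiomyocyte markers were higher in 7d-SHAM + 3 than in 1d-SHAM + 3 and 0 lower. Sod2, Cat and Sod1 were not called there. In 7d-MI + 3 against 1d-MI + 3, where Sod2 and Cat were lower, 3 of the cardiomyocyte markers rose and 4 fell. The part of any of these cell types in the members' changes was not tested.

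**Figure D4:**
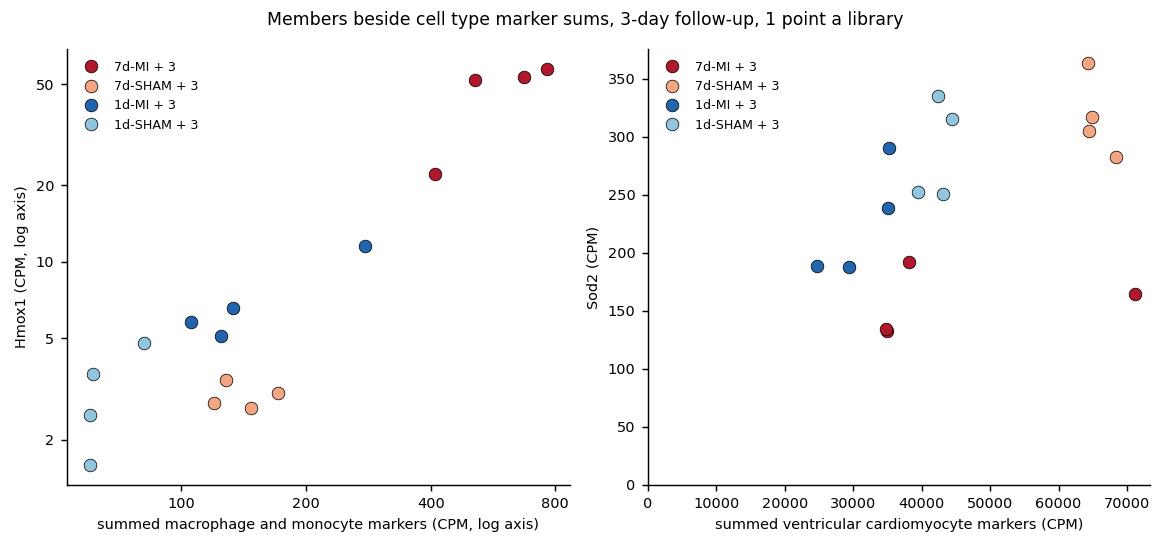
Left, Hmox1 (CPM) against the sum of 16 macrophage and monocyte markers (CPM), both on log axes, and right, Sod2 (CPM) against the sum of 12 ventricular cardiomyocyte markers (CPM), for the 16 libraries at 3 days, 1 point a library. Hmox1 and the macrophage sum are both highest in 7d-MI + 3, and the 7d-MI + 3 library with a cardiomyocyte sum of 71102 CPM has 164 CPM of Sod2.

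At 21 days none of the 10 genes was called in any comparison, and few genes were called at all. The shares called among all 24646 tested genes were 0% in 7d-MI + 21 against 7d-SHAM + 21 (with 4111 genes at an unadjusted p under 0.05), 0.0162% in 1d-MI + 21 against 1d-SHAM + 21, 0.0325% in 7d-MI + 21 against 1d-MI + 21, 0% in 7d-SHAM + 21 against 1d-SHAM + 21 (442 genes unadjusted) and 0% for the difference of the infarct effects (927 genes unadjusted). In these 5 comparisons DESeq2 called 1028, 328, 208, 0 and 44 genes and limma-voom 14, 1, 15, 0 and 0. The spread between libraries was larger than at 3 days, with a common biological coefficient of variation of 0.567, beside 0.331.

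Gpx3 came nearest to a call at 21 days. It had 58.6, 84.8 and 118 CPM in 7d-MI + 21, against 40.6, 34.1 and 35.4 CPM in 7d-SHAM + 21, whereas it had 28.9, 37.7 and 26.6 CPM in 1d-MI + 21, against 80.9, 72.1 and 49.7 CPM in 1d-SHAM + 21. The infarcted libraries were thus all higher than sham after the 7-day operation and all lower after the 1-day operation. The log2 fold changes were 1.25 ± 0.33 (adjusted p = 0.179) and -1.12 ± 0.33 (adjusted p = 0.284), and the difference of the infarct effects was 2.37 ± 0.47 (edgeR's adjusted p = 0.386). DESeq2 called Gpx3 in 4 of the comparisons, with an adjusted p of 7.24e-05 for the difference of effects. Between the sham groups, Gpx3 was lower in all 3 libraries of 7d-SHAM + 21 than in 1d-SHAM + 21 (log2 fold change -0.88 ± 0.33, adjusted p = 1.00).

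**Figure D5:**
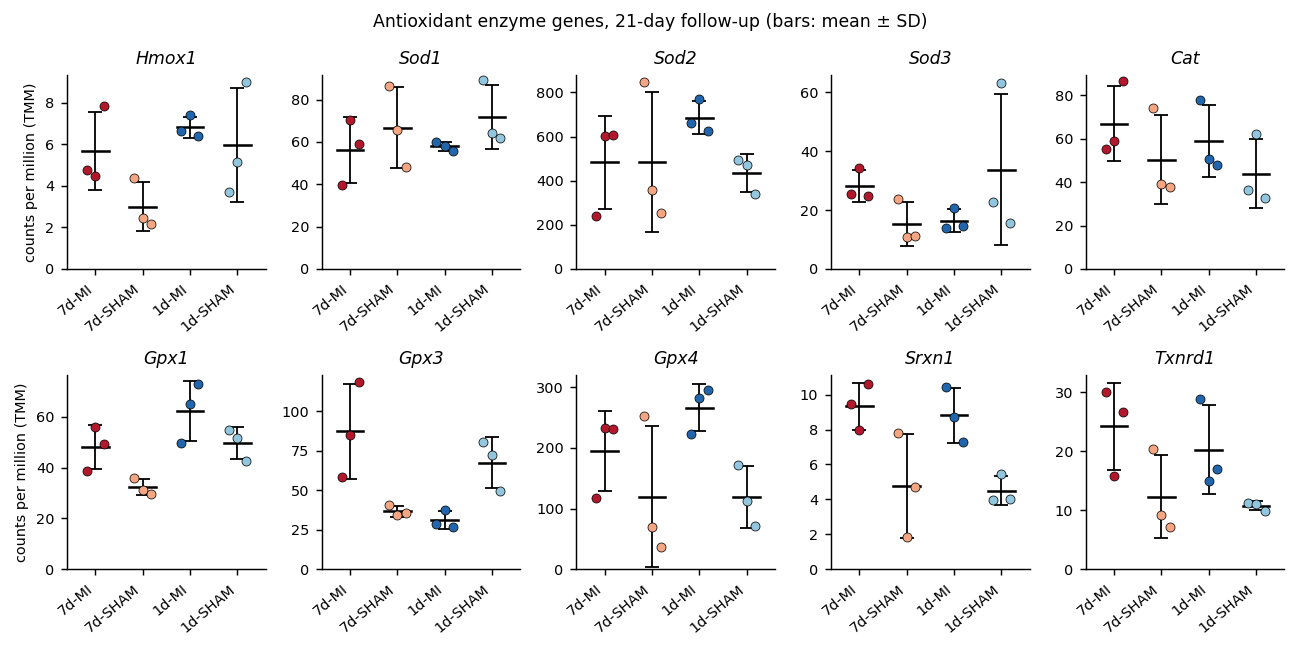
Level of each antioxidant enzyme gene in the 12 libraries of the 21-day follow-up, in CPM after TMM scaling on a linear axis from 0, with the mean and SD of the 3 libraries of each group. Gpx3 lies above its sham group in 7d-MI + 21 (58.6 to 118 CPM) and below it in 1d-MI + 21 (26.6 to 37.7 CPM), and 1 library of 7d-SHAM + 21 stands apart for Sod2 (847 CPM) and Gpx4 (252 CPM).

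The calls of the other members in 7d-MI + 21 against 7d-SHAM + 21 depended on whether 7d-SHAM + 21 replicate 1 was included. Gpx4 had 118, 234 and 231 CPM in 7d-MI + 21, against 252, 69.0 and 37.0 CPM in 7d-SHAM + 21, where replicate 1 was higher than every infarcted library. Txnrd1 had 30.02, 15.9 and 26.7 CPM, against 20.3, 9.26 and 7.24 CPM, and Srxn1 9.45, 7.95 and 10.6 CPM, against 7.80, 1.83 and 4.71 CPM. In both genes the same sham library was the highest of its group. Hmox1 had 4.75, 4.49 and 7.86 CPM, against 4.37, 2.47 and 2.18 CPM, and Sod3 25.3, 34.4 and 24.8 CPM, against 23.9, 10.8 and 11.2 CPM. Without this library 6 of the 10 genes were called higher in 7d-MI + 21, namely Gpx4 (log2 fold change 1.91, adjusted p = 0.00874), Txnrd1 (1.59, adjusted p = 0.00894), Srxn1 (1.59, adjusted p = 0.0117), Gpx3 (1.37, adjusted p = 0.0165), Hmox1 (1.33, adjusted p = 0.0278) and Sod3 (1.4, adjusted p = 0.032), and 5903 of 27303 tested genes were called. With 3 libraries a group, an aberrant library and a wide spread of the group cannot be told apart. The gene with most counts in 7d-SHAM + 21 replicate 1 was mt-Co1 (9.806%), as in 7d-MI + 21 replicates 2 and 3 (11.612% and 10.859%). In 7d-SHAM + 21 replicate 2 that gene was mt-Rnr2 (31.832%), and in replicate 3 it was CT010467.1 (18.96%). CT010467.1 also led in 7d-MI + 21 replicate 1 (11.607%). Which library of 7d-SHAM + 21 was atypical was not tested.

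Srxn1, Txnrd1, Gpx4 and Sod2 were higher in all 3 libraries of 1d-MI + 21 than in all 3 of 1d-SHAM + 21. Srxn1 had 10.4, 8.74 and 7.30 CPM, against 3.99, 5.44 and 4.01 CPM (log2 fold change 0.98 ± 0.42, adjusted p = 0.316). Txnrd1 had 28.8, 14.9 and 17.0 CPM, against 11.2, 11.1 and 9.84 CPM (0.92 ± 0.40, adjusted p = 0.326). None of these fold changes passed the test. Gpx4 had 222, 282 and 295 CPM in 1d-MI + 21, against 173, 112 and 70.7 CPM in 1d-SHAM + 21 (1.17 ± 0.57, adjusted p = 0.355), and Sod2 had 662, 769 and 623 CPM, against 496, 472 and 338 CPM (0.65 ± 0.47, adjusted p = 0.491). Sod1, the only member other than Gpx3 lower in all 3 libraries of 1d-MI + 21, had 60.2, 58.0 and 55.7 CPM, against 89.4, 64.0 and 62.0 CPM (-0.31 ± 0.32, adjusted p = 0.635). Hmox1 had 6.41 to 7.39 CPM in 1d-MI + 21 and 3.69 to 9.003 CPM in 1d-SHAM + 21, and Sod3 13.8 to 20.8 CPM and 15.5 to 63.3 CPM, with replicate 2 of 1d-SHAM + 21 far above the others. Cat had 47.9 to 77.9 CPM in 1d-MI + 21 and 32.8 to 62.1 CPM in 1d-SHAM + 21, and Gpx1 49.5 to 72.7 CPM and 42.7 to 54.9 CPM.

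Between the infarcted groups at 21 days, Gpx3 was 2.81-fold higher in 7d-MI + 21 than in 1d-MI + 21 (log2 fold change 1.49 ± 0.33, adjusted p = 0.174) and passed without 7d-SHAM + 21 replicate 1 (adjusted p = 0.0423). Sod3 was higher in all 3 libraries of 7d-MI + 21 (log2 fold change 0.78 ± 0.47, adjusted p = 0.868) and Sod2, at 241, 605 and 607 CPM against 662, 769 and 623 CPM, lower in all 3 (-0.50 ± 0.47, adjusted p = 0.916). Hmox1, which differed 6.33-fold between the infarcted groups at 3 days, had a log2 fold change of -0.26 ± 0.39 between them at 21 days (adjusted p = 0.958). The macrophage marker sum was 391 to 439 CPM in 7d-MI + 21, against 268 to 279 CPM in 7d-SHAM + 21, and 299 to 396 CPM in 1d-MI + 21, against 268 to 444 CPM in 1d-SHAM + 21. The fibroblast sum was 3362 to 5218 CPM in 7d-MI + 21, against 1080 to 1943 CPM in 7d-SHAM + 21, and the atrial sum was 2183 to 4539 CPM, against 110 to 1003 CPM. The mesothelial and epicardial sum was 27.2 to 55.0 CPM, against 12.3 to 16.4 CPM, and the ventricular cardiomyocyte sum overlapped, at 39562 to 43908 CPM, against 27445 to 50738 CPM. In 1d-MI + 21 the mesothelial and epicardial sum was 12.2 to 17.4 CPM, against 12.4 to 20.7 CPM in 1d-SHAM + 21. White adipocyte markers had a median log2 fold change of 1.30 after the 7-day operation and -1.82 after the 1-day operation. Their sum, with Fabp4 the highest gene, was 283 to 592 CPM in 7d-MI + 21, against 495 to 939 CPM in 7d-SHAM + 21. After the 1-day operation it was 519 to 732 CPM, against 511 to 859 CPM. In edgeR 0 genes of these lists were called at 21 days, and their part in the members' values was not tested. Levels at 3 and at 21 days came from different library kits and are not compared.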

How the data were processed

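RNA was sequenced from the remote zone of the left ventricular wall, with stranded total RNA libraries at 3 days and libraries of another kit at 21 days. The authors deposited read counts per gene with the CPM, RPKM and log2 values derived from them, and their processing notes name TopHat2 2.0.11, Bowtie2 2.2.2, Cufflinks 2.2.1 and GRCm38. Which program counted reads, with what strand setting and on which annotation, is not given in the sources used here. Only the deposited counts were tested. Gene lengths implied by the CPM and RPKM columns served for levels per kilobase. For 2 libraries deposited as 2 lanes the counts were summed, and 645 of the 45318 rows carry no gene symbol. Groups came from the labels, and replicates were numbered by order within a group.

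Each follow-up was fitted alone, with a mean for each of its 4 groups, in edgeR 4.0.16 (R 4.3.3; filterByExpr with a minimum count of 10, TMM scaling, robust quasi-likelihood F-test). This tested 20345 genes at 3 days and 24646 at 21 days. Adjusted p-values are Benjamini-Hochberg values over all tested genes, and the standard error of a log2 fold change is its size divided by the square root of F. The fits were tested on simulated counts. Alternatives were RLE and upper-quartile scaling, no filter, a mean count of at least 50, DESeq2 1.42.0, limma-voom (limma 3.58.1) with and without the name prefix as a random block, a replicate block, the 2 groups alone, the first lane alone, and each library left out. The members and gene lists were chosen with earlier results of these data known. All members are named. From each list around them, up to 3 genes of smallest p in each direction are named for 7d-MI + 3 against 7d-SHAM + 3 and against 1d-MI + 3, and for each called member the 2 genes of highest r over log2 CPM with a prior count of 2. The marker genes Ahsp and Muc16 matched no row. Promoter windows and their sequences are from RefSeq on GRCm38.p6.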

Additional observations from a re-analysis of the deposited data

Results flagged for a closer look

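Hmox1 met a preset rule for a second look in 2 ways. Among the 40 sets of 4 libraries at 3 days (10 genes in 4 groups), of which chance alone sets apart about 1 in 20, replicate 3 of 7d-MI + 3 was set apart from the others of its group for Hmox1, at 22.3 CPM, beside 51.8 to 57.2 CPM in the other libraries. The same library had the lowest macrophage and monocyte marker sum of its group (410 CPM, beside 512 to 763 CPM). It also had the highest neutrophil marker sum (83.4 CPM, beside 39.8 to 58.1 CPM) and fibroblast marker sum (7218 CPM, beside 6312 to 7033 CPM) of its group. The infarct effect on Hmox1 also differed between the operation days, by 2.71 on the log2 scale (adjusted p = 0.00181, edgeR's quasi-likelihood test), and by 2.96 without that library (adjusted p = 0.000416). All 4 libraries of 7d-MI + 3 lay above all 4 of 7d-SHAM + 3, and likewise after the 1-day operation.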

How the results depend on the processing

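Of 2280 refitted fold changes of members, 2194 kept their side of the threshold, 43 lost a call, 43 gained one, and 0 called values changed sign. Signs of values that passed in neither fit differed in 104. In 1d-MI + 3 against 1d-SHAM + 3, with 3 genes called, 1 passed with the 2 groups alone and 1 with the prefix as a random block, and 1 to 6 with a library left out. In 7d-SHAM + 3 against 1d-SHAM + 3, with 3 called, 0 passed with the prefix block and 1 to 3 with a library left out. For the difference of the infarct effects at 3 days, with 1 called, 2 passed under RLE scaling, upper-quartile scaling, no filter or the stricter filter, 3 with DESeq2, and 1 to 3 with a library left out. At 21 days, with 0 called in each comparison, DESeq2 called 1 in 7d-MI against 7d-SHAM, 1d-MI against 1d-SHAM, 7d-MI against 1d-MI and the difference of effects, the 2 groups alone called 1 in 1d-MI against 1d-SHAM, and leaving out a library called 0 to 6 in 7d-MI against 7d-SHAM and 0 to 1 in 7d-MI against 1d-MI. With a library left out, 7 to 9 genes passed in 7d-MI + 3 against 7d-SHAM + 3 and 4 to 7 in 7d-MI + 3 against 1d-MI + 3. The causes were not tested. Over all genes, 1d-MI + 3 against 1d-SHAM + 3 had 1722 calls, but 161 with the 2 groups alone, 255 with the prefix block, 2789 with DESeq2 and 2981 with no filter. The prefix block also cut the calls to 4492 from 6910 in 7d-MI + 3 against 7d-SHAM + 3, to 1221 from 4125 between the sham groups and to 864 from 2662 for the difference of effects. At 21 days no filter gave 383, 154, 102, 0 and 17 calls in the order of the report, beside 0, 4, 8, 0 and 0, and DESeq2 gave 1028, 328, 208, 0 and 44.

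The replicate numbers follow sample order and pair nothing. A replicate block gave 8, 2, 6, 3 and 1 called members in the 5 comparisons at 3 days, beside 8, 3, 6, 3 and 1, and 0 in all 5 at 21 days. Ordered without gene length, 6 members at 3 days and 5 at 21 days changed place. The prefix block could not be fitted at 21 days, where each group has a prefix of its own.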
